A study of Mus musculus with 6 samples.

Results

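Potassium channel genes were examined in γδ T cells sorted from mouse spleen according to the transcription factor Eomes. The members were all genes whose name on the array begins with Kcn, the root that gene nomenclature gives to potassium channel subunits. There were 95 such genes among the 30342 gene names on the array, and 27 of them had a signal well above background on 3 or more of the 6 arrays. The name root also covers auxiliary subunits, a noncoding RNA (Kcnq1ot1) and a regulator of channel assembly (Kcnrg), so the 27 are not all channels that form a pore. The cells came from Eomes-IRES-GFP reporter mice (allele Eomestm1.1Twa) on a C57BL6 background, where GFP, a green fluorescent protein, reports Eomes expression. All samples carried this allele. After depletion of cells with B220, CD4 or CD8β, cells that were CD3+, TCRγδ+ and TCRβ- were sorted as GFP+ (Eomes-positive) or GFP- (Eomes-negative). Each of 3 independent sorts pooled the spleens of 4 to 6 mice and gave 1 sample per group, so there were 3 arrays in each group. The mice were 9, 9.5 and 7.5 weeks old in sorts 1, 2 and 3, and the RNA input was 9 ng in sorts 1 and 2 and 4 ng in sort 3.

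A potassium channel lets potassium leave the cell and so holds the inside of the membrane negative. In T cells this negative potential draws calcium in through store-operated channels after the antigen receptor is engaged, and calcium then acts on calcineurin and the NFAT transcription factors. The voltage-gated channel encoded by Kcna3 and the calcium-activated channel encoded by Kcnn4 are the channels best known for this role in T cells. Other classes are the inward rectifiers (Kcnj), the tandem-pore background channels (Kcnk) and auxiliary subunits that bind a pore-forming subunit and change its gating.

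A level here is the log2 signal of a probe minus the log2 of its array's 75th percentile, so that 0 equals that percentile. Differences are Eomes-positive minus Eomes-negative on this log2 scale. Because every gene is read by its own probe, levels are compared between groups and not between genes. The raw 75th percentile was 1581 to 1684 intensity units in sorts 1 and 2 and 534 to 549 in sort 3, and each array measured 47.7% to 56.6% of the probes. Eomes, which checks the labels, lay at 0.72, 0.88 and -1.14 in Eomes-negative sorts 1 to 3 and at 5.31, 4.96 and 4.48 in Eomes-positive sorts 1 to 3. Cd3e, Cd3d, Cd3g, Cd247 and Thy1, markers of T cells, were well above background on all 6 arrays. The 3 γδ markers on the same list (Trdc, Tcrg-C1 and Tcrg-C2) were not matched by name.

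Start-site sequences are shown for 4 of the 5 members that passed the test below, because the sorted populations differ in a T-box factor and the members moved in both directions. Each is the 250 bases upstream of the RefSeq start site in GRCm38.p6, written 5′ to 3′ on the strand of the gene. The Kcnc1 window is chr7:46396218-46396467 (+ strand), that of Kcnj8 is chr6:142571615-142571864 (- strand), that of Kcnk1 is chr8:125994852-125995101 (+ strand) and that of Kcnmb4 is chr10:116473524-116473773 (- strand). Capitals mark the letters TCACACC, the core of the T-box motif, or its reverse complement.
Kcnc1: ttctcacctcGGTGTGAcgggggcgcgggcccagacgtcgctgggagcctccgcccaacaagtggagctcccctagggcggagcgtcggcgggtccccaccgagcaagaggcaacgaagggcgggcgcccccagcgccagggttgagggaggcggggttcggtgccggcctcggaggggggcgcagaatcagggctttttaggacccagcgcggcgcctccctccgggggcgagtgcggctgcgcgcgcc
Kcnj8: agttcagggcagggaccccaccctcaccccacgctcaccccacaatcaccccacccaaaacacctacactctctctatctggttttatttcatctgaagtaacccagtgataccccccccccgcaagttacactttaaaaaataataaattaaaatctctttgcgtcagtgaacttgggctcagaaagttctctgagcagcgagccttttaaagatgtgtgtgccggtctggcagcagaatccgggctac
Kcnk1: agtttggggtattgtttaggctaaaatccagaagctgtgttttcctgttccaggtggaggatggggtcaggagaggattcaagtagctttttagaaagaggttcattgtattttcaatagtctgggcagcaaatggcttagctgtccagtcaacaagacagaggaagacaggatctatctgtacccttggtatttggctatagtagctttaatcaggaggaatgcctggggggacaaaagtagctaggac
Kcnmb4: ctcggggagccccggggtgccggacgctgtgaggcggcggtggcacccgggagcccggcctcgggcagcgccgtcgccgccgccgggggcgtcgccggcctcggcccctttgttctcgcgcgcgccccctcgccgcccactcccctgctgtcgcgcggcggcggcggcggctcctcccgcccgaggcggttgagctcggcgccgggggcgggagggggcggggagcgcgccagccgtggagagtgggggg
The Kcnc1 window held 1 match, on the minus strand 240 bases before the start site, and the other 3 windows held 0. Both strands were also searched for the longer letters AGGTGTGA, whose matches always include a match to the shorter ones, and the 4 windows held 0. Over windows of 300 bases, which add 50 bases after the start, 3.98% of all 32851 RefSeq windows held TCACACC and 1.28% held AGGTGTGA. Of the 95 members, 70 were matched in RefSeq with 95 windows, of which 5 (5.26%) held the shorter and 1 (1.05%) the longer letters. The 4 upstream windows also differed in base composition: 83.6% G or C for Kcnmb4 and 74.4% for Kcnc1, with 43 and 30 CpG pairs, against 49.2% for Kcnj8 (6 pairs) and 44.4% for Kcnk1 (0 pairs).

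Most Kcn genes gave no measurable signal in these cells. The chosen probe of 52 members was well above background on no array, and 16 members were so on 1 or 2 arrays. Measured members were 28.4% of the family, against 54.1% of all gene names. Of 14 tandem-pore genes 7 were measured, against 11 of 40 voltage-gated genes, 4 of 15 inward rectifiers, 2 of 16 auxiliary subunits and 1 of 8 calcium- or sodium-activated channels. Kcnk18, a tandem-pore channel that calcineurin regulates, was not well above background on any array.

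**Figure D1:**
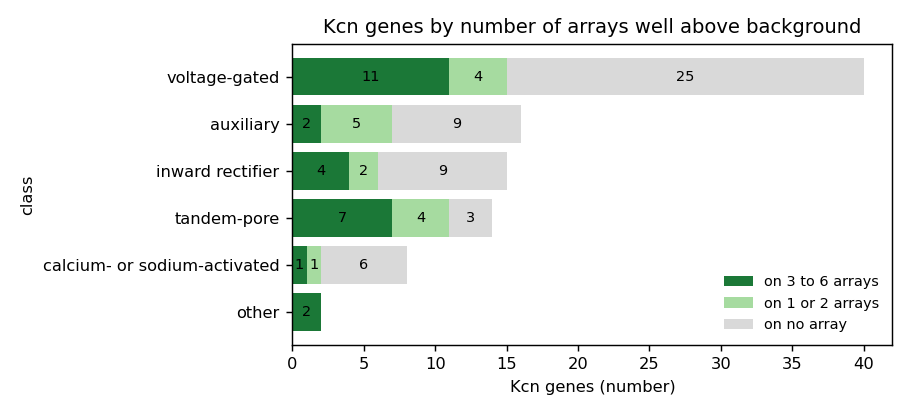
Number of Kcn genes in each class (horizontal axis), split by how many of the 6 arrays showed a signal well above background. Tandem-pore genes were measured in 7 of 14 cases and voltage-gated genes in 11 of 40.

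The comparison asked which of these genes differ between Eomes-positive and Eomes-negative γδ T cells. Among the 27 measured members, Kcnc1 and Kcnj8 were higher in Eomes-positive cells, and Kcnk1, Kcnmb4 and Kcnh3 were lower (limma, Benjamini-Hochberg adjusted p under 0.05 over all 16413 genes tested). These 5 are 18.5% of the members tested, where 2.77% of all genes passed, 1.2% higher and 1.57% lower. With the sort as a block, 2 members rose and 5 fell (25.9%), Kcnk7 and Kcnk6 being added, where 7.98% of all genes passed (3.66% higher and 4.33% lower). The groups did not overlap for 3 members that were higher and 7 that were lower in Eomes-positive cells, 10 of 27, against 18.2% of all genes tested (8.53% higher and 9.68% lower). At an unadjusted p under 0.05 there were 8 members, where 12.2% of all genes lay. The median difference of the members was -0.17, beside -0.01 over all genes tested. A member had to be measured on 3 arrays to enter, and Kcnk1 entered through its 3 Eomes-negative arrays alone, so these shares describe the family and are not used as support. Without a block the p-values measure the spread between the sorts within each group. With the sort as a block they measure the spread of the differences within sorts. Each sort is a pool of animals.

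**Figure D2:**
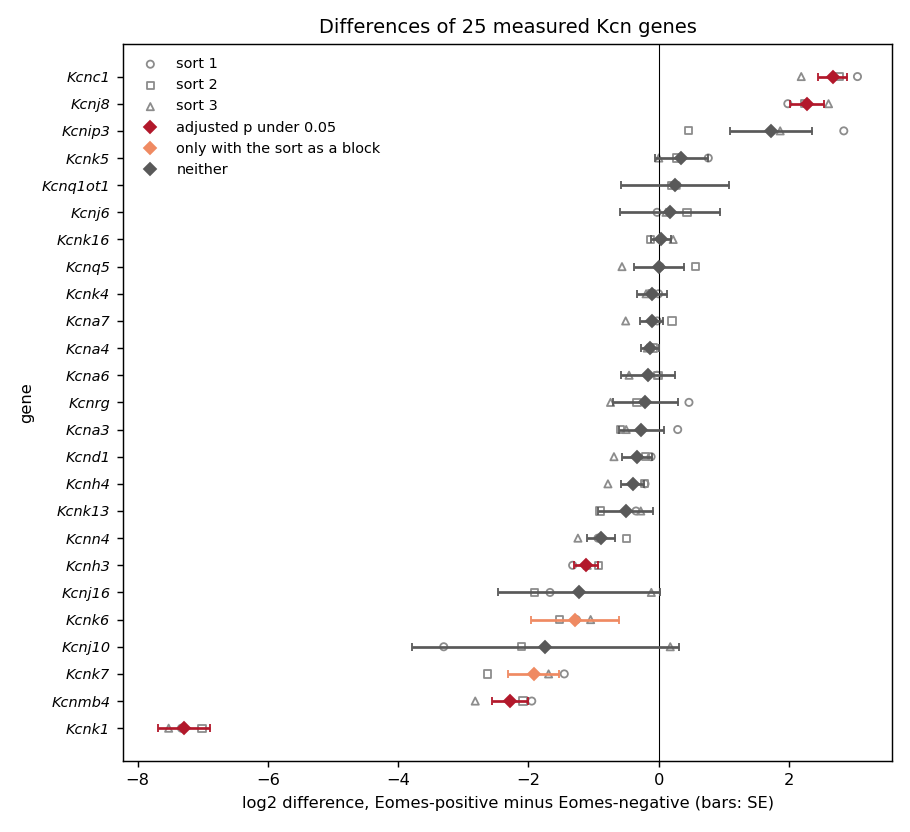
Log2 difference of 25 measured Kcn genes (diamonds, bars show SE) with the difference in each sort (open symbols). Kcnk1 lies at -7.29, the other genes past the test lie between -2.28 and 2.67, and the 20 shown that did not pass lie between -1.92 (Kcnk7) and 1.72 (Kcnip3).

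Tandem-pore channels, which pass a background potassium current, gave the largest fall. Kcnk1 encodes a tandem-pore channel known for a weak current. Its levels were -0.01, 0.56 and 1.17 in Eomes-negative sorts 1 to 3, all well above background, and -7.34, -6.46 and -6.36 in Eomes-positive sorts 1 to 3, none well above background. The groups were far apart in every sort, and the Eomes-positive level is only a bound. The fall of Kcnk1 was 103-fold when each Eomes-positive array was raised to the lowest signal of any probe well above background on it. Some probes with higher signals were not well above background, such as Kcnab2 at -4.52 on Eomes-positive array 3. The 103-fold value is therefore not a firm lower limit. The fitted difference was -7.29 (SE 0.40, limma adjusted p = 0.0019) and -4.34 with another background correction (normexp, limma adjusted p = 0.0087), a smaller fall than 103-fold. Normexp here added an offset of 50 intensity units before the log, which by itself makes the differences of dim probes smaller. This holds for every normexp value below. The single Kcnk1 probe covers 128554281 to 128554340 on chromosome 8 of mm9, the build of all probe positions here. Whether a probe lies in coding sequence or a UTR is not given here. In bulk samples, fewer cells of a type and less RNA per cell cannot be told apart.

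Kcnk7, which encodes a tandem-pore subunit with no known current of its own, lay at -2.82, -2.13 and -1.89 in Eomes-negative sorts 1 to 3. In Eomes-positive sorts 1 to 3 it lay at -4.27, -4.76 and -3.58. The groups did not overlap, and the difference of -1.92 (SE 0.38) did not pass the test without a block (limma adjusted p = 0.0761) and passed once sort was a block (0.032). It was -1.16 with the normexp correction. Kcnk6, a tandem-pore channel known from macrophages, lay at -2.59, -0.70 and -2.55 in Eomes-negative and at -3.85, -2.23 and -3.60 in Eomes-positive sorts 1 to 3. Sort 2 was high in both groups, so the groups overlapped, but Kcnk6 was lower in Eomes-positive cells within each sort, by -1.27, -1.53 and -1.05. The difference of -1.28 (SE 0.67) passed only in the fit blocked by sort (limma adjusted p = 0.0181, against 0.6 without the block), and was -0.66 without Eomes-negative array 2 in a fit with no block. Summed signal of 6 myeloid markers, in multiples of the 75th percentile, was 18.2, 98.2 and 34.2 in Eomes-negative sorts 1 to 3 and 12.8, 70.4 and 34.7 in Eomes-positive sorts 1 to 3. It was thus also highest in sort 2, with 6 of 6 markers measured and 0 past the test. Csf1r, Adgre1, Cd14 and Fcgr3 were lower in Eomes-positive cells in sorts 1 and 2 and higher in sort 3. Lyz2 was higher in every sort, and Itgam was lower in sort 3 only. Summed markers of platelets were also highest in sort 2 of both groups, as was the killer and type 1 sum, which is mostly Gzma. In Eomes-positive cells Gzma and Ncr1 were highest in sort 2, and Klrb1c, Prf1 and S1pr5 were not. Klrk1 was lowest in sort 2 of both groups. The part of any of these cells in the Kcnk6 values was not tested.

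The other 4 measured tandem-pore genes did not pass the test. Kcnk5, an acid-sensitive channel known from T cell volume control, lay at -3.05, -2.46 and -1.61 in Eomes-negative and -2.29, -2.18 and -1.61 in Eomes-positive sorts 1 to 3. The groups overlapped, and its difference of 0.35 (SE 0.41) had a 95% interval of -0.66 to 1.36. Kcnk13, a channel known from microglia, differed by -0.51 (SE 0.42), Kcnk4, a mechanically gated channel, by -0.10 (SE 0.23) and Kcnk16 by 0.04 (SE 0.15).

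**Figure D3:**
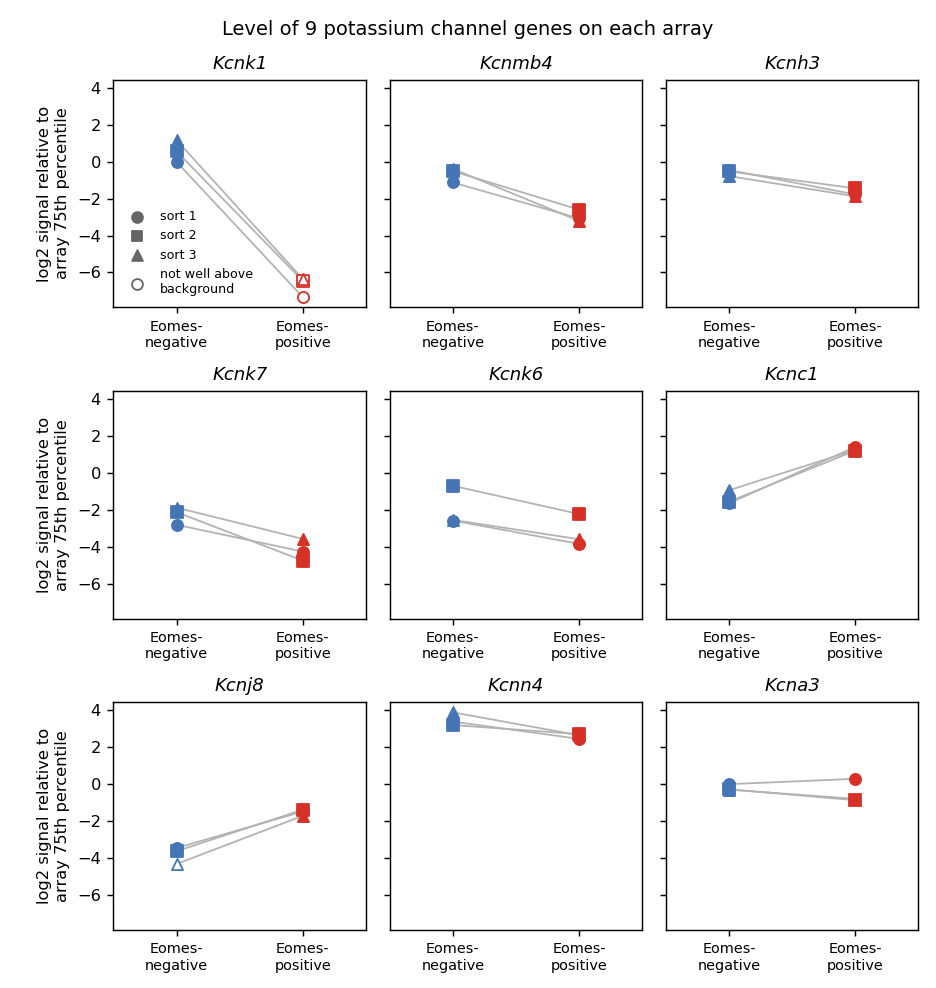
Level by array (vertical axis, log2 signal against the array's 75th percentile) for 9 Kcn genes in Eomes-negative (blue) and Eomes-positive (red) cells, with lines joining the arrays of a sort. Open symbols were not well above background, which holds for Kcnk1 on all 3 Eomes-positive arrays and for Kcnj8 on 1 Eomes-negative array, and levels are not comparable between panels.

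Of the 11 measured voltage-gated genes, Kcnc1 rose, Kcnh3 fell and 9 did not pass the test. Kcnc1 encodes a fast delayed rectifier best known from rapidly firing neurons and also described in mouse T cells. Its levels were -1.65, -1.56 and -0.95 in Eomes-negative sorts 1 to 3 and 1.40, 1.20 and 1.24 in Eomes-positive sorts 1 to 3, all well above background. Every Eomes-positive array was above every Eomes-negative array. Kcnc1 was 6.36-fold higher in Eomes-positive cells, a difference of 2.67 (SE 0.22, limma adjusted p = 0.0054), with 3.05, 2.77 and 2.19 in sorts 1 to 3. Its probe lies at 53688622 to 53688681 of chromosome 7, and Kcnc1 has 2 dimmer probes. The one at 53682767 to 53682826 gave a difference of 2.82 and was measured on 2 Eomes-negative and 3 Eomes-positive arrays. The other, at 53693712 to 53693771, was measured on 2 Eomes-positive and 0 Eomes-negative arrays, so its difference is not given.

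Kcnh3, an ether-à-go-go-like channel known mainly from the forebrain, lay at -0.46, -0.53 and -0.78 in Eomes-negative sorts 1 to 3. In Eomes-positive sorts 1 to 3 it lay at -1.78, -1.45 and -1.88, below every Eomes-negative array. Kcnh3 was 2.16-fold lower, a difference of -1.11 (SE 0.18, limma adjusted p = 0.041), read by 1 probe at 99073172 to 99073231 of chromosome 15. The call ended with median scaling (limma adjusted p = 0.0795), with no filter on dim probes (0.137) and with an intensity trend in the prior variance (0.0506).

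Kcna3, the voltage-gated channel that helps set the membrane potential of T cells, lay at -0.01, -0.29 and -0.31 in Eomes-negative sorts 1 to 3. In Eomes-positive sorts 1 to 3 it lay at 0.28, -0.88 and -0.81, so that sort 1 went up and the others went down. Its difference of -0.27 (SE 0.34) had a 95% interval of -1.11 to 0.58 and did not pass the test (limma adjusted p = 0.939). With slide as a block it was 0.03. Kcna4, a rapidly inactivating channel of the same subfamily, lay at 2.22, 2.13 and 2.08 in Eomes-negative and 2.07, 2.05 and 1.90 in Eomes-positive sorts 1 to 3. The groups did not overlap, by a narrow margin, and the difference of -0.13 (SE 0.13) did not pass (limma adjusted p = 0.891). Of the 60 bases of the only Kcna4 probe, 22 lie in stretches of alternating G and T, and how specific that probe is was not tested. Kcna6, Kcna7, Kcnd1, Kcnh4 and Kcnq5, also voltage-gated, differed by -0.40 to 0.01 and none passed.

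The calcium-activated channel Kcnn4, which potassium leaves through when calcium rises, was the 1 measured member of its class. Kcnn4 lay at 3.38, 3.19 and 3.88 in Eomes-negative sorts 1 to 3 and at 2.44, 2.70 and 2.64 in Eomes-positive sorts 1 to 3. All Eomes-positive arrays were below all Eomes-negative arrays. The difference of -0.89 (SE 0.22, 95% interval -1.43 to -0.35) did not pass over all genes, either without a block (limma adjusted p = 0.131) or with one for sort (0.0649). Its probe lies within 25169184 to 25169782 of chromosome 7.

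Among auxiliary subunits, Kcnmb4 fell. It encodes a β subunit of the large-conductance calcium-activated potassium channel and slows the gating of that channel. Its levels were -1.13, -0.52 and -0.39 in Eomes-negative sorts 1 to 3 and -3.08, -2.60 and -3.21 in Eomes-positive sorts 1 to 3, with no overlap. Kcnmb4 was 4.87-fold lower in Eomes-positive cells, a difference of -2.28 (SE 0.27, limma adjusted p = 0.0153), from a probe at 115854977 to 115855036 of chromosome 10. A second probe, at 115910498 to 115910557, gave -1.91 and was measured on 3 Eomes-negative arrays and 1 Eomes-positive array. Kcnma1, the pore-forming partner of this subunit, was measured on 1 array only, Eomes-negative sort 3 (level -3.81), and was not tested.

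Kcnip3, a calcium-binding protein that associates with voltage-gated channels of the Kcnd family and also acts as a transcriptional repressor, lay at -4.42, -1.88 and -3.18 in Eomes-negative sorts 1 to 3. In Eomes-positive sorts 1 to 3 it lay at -1.58, -1.42 and -1.31, above every Eomes-negative array. Its difference of 1.72 (SE 0.62) was 2.84, 0.46 and 1.86 in sorts 1 to 3 and did not pass the test (limma adjusted p = 0.33, or 0.127 with the sort as a block). Of its partners, Kcnd1 was measured on all 6 arrays (difference -0.34, SE 0.23), and Kcnd2 and Kcnd3 were not well above background on any array.

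Of the inward rectifiers, Kcnj8 rose. It encodes the pore of an ATP-sensitive potassium channel, which works together with a sulfonylurea receptor (Abcc8 or Abcc9). Kcnj8 lay at -3.47, -3.64 and -4.34 in Eomes-negative sorts 1 to 3, the first 2 well above background, and at -1.49, -1.40 and -1.73 in Eomes-positive sorts 1 to 3. The groups did not overlap. Kcnj8 was 4.85-fold higher in Eomes-positive cells, a difference of 2.28 (SE 0.26, limma adjusted p = 0.0144), or 1.46 with the normexp correction (adjusted p = 0.0109), from a probe at 142513487 to 142513546 of chromosome 6. Abcc8 differed by -0.03 (SE 0.36, limma adjusted p = 0.997), and Abcc9 was not well above background on any array.

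Kcnj10, a glial potassium-buffering channel, varied more between sorts than between groups, at -1.10, 1.87 and -4.98 in Eomes-negative and -4.40, -0.24 and -4.80 in Eomes-positive sorts 1 to 3. Like Kcnk6 it was highest in sort 2, where the summed markers of myeloid cells and of platelets were highest. The killer and type 1 sum, mostly Gzma, was also highest there. The part of any of these cells was not tested. The Kcnj10 difference of -1.74 (SE 2.05) did not pass (limma adjusted p = 0.923), nor did those of Kcnj16 (-1.23, SE 1.24) and Kcnj6 (0.17, SE 0.77). The 2 members that encode no channel subunit differed by 0.25 (SE 0.83) for the imprinted noncoding RNA Kcnq1ot1 and -0.20 (SE 0.50) for Kcnrg.

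Leaving out arrays moved the differences little and ended several calls. The fits that leave out arrays, here and below, had no block, so they did not use the pairing by sort. Over the 9 fits without 1 array or 1 sort, the differences were -7.58 to -6.98 for Kcnk1, 2.48 to 2.91 for Kcnc1, 2.02 to 2.45 for Kcnj8, -2.51 to -2.02 for Kcnmb4 and -1.24 to -1.01 for Kcnh3. Over all genes, leaving out 1 array lowered the calls from 197 higher and 257 lower to 57 to 101 higher and 94 to 180 lower. Without sort 1 or without sort 2, with 2 arrays left per group, limma called 0 members and 0 genes on the whole array (1354 and 1267 genes had an unadjusted p under 0.05). The adjusted p-values were then 0.0663 and 0.0664 for Kcnk1, 0.151 and 0.122 for Kcnc1, 0.206 and 0.186 for Kcnj8, 0.153 and 0.143 for Kcnmb4, and 0.437 and 0.258 for Kcnh3. Without sort 3, the pair with less RNA, Kcnk1 (limma adjusted p = 0.0361), Kcnc1 (0.0315) and Kcnj8 (0.0476) passed, and Kcnmb4 (0.141) and Kcnh3 (0.146) did not. Kcnk1 and Kcnc1 passed without any 1 of the 6 arrays. The filter on measured arrays was set on all 6 arrays before any was left out. Kcnk1 met it through its Eomes-negative arrays alone, so its passing in these fits is not used as support. The Kcnj8 call was lost without Eomes-negative array 2 (0.0554) and without Eomes-positive array 1 (0.0783), 2 (0.0597) or 3 (0.05001). The Kcnmb4 call was lost without Eomes-negative array 2 (0.0692) or 3 (0.0635) and without Eomes-positive array 1 (0.0829) or 3 (0.0617). The Kcnh3 call was lost without Eomes-negative array 1 (0.147), 2 (0.15) or 3 (0.0893) and without Eomes-positive array 1 (0.17), 2 (0.0733) or 3 (0.131). Within slide 1, which held 2 Eomes-negative arrays and 1 Eomes-positive array, the differences were -7.61 for Kcnk1, -2.25 for Kcnmb4, -1.29 for Kcnh3, 3.01 for Kcnc1 and 2.07 for Kcnj8. Within slide 3, which held sort 3, they were -7.52, -2.82, -1.10, 2.19 and 2.61 in the same order, and all 5 passed with slide as a block.

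Few of the measured members could be compared between probes. Of the 27 measured members, 14 had 1 probe and 13 had more. For 4 of the 13 (Kcna7, Kcnc1, Kcnmb4 and Kcnq1ot1) another probe was well above background on 3 or more arrays and had a difference of the same sign. For the other 9 (Kcna6, Kcnd1, Kcnh4, Kcnip3, Kcnk4, Kcnq5 and Kcnrg among them) no other probe was well above background on any array, so their levels rest on the brightest probe. That of Kcna6 has no mapped position in the array design.

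**Figure D4:**
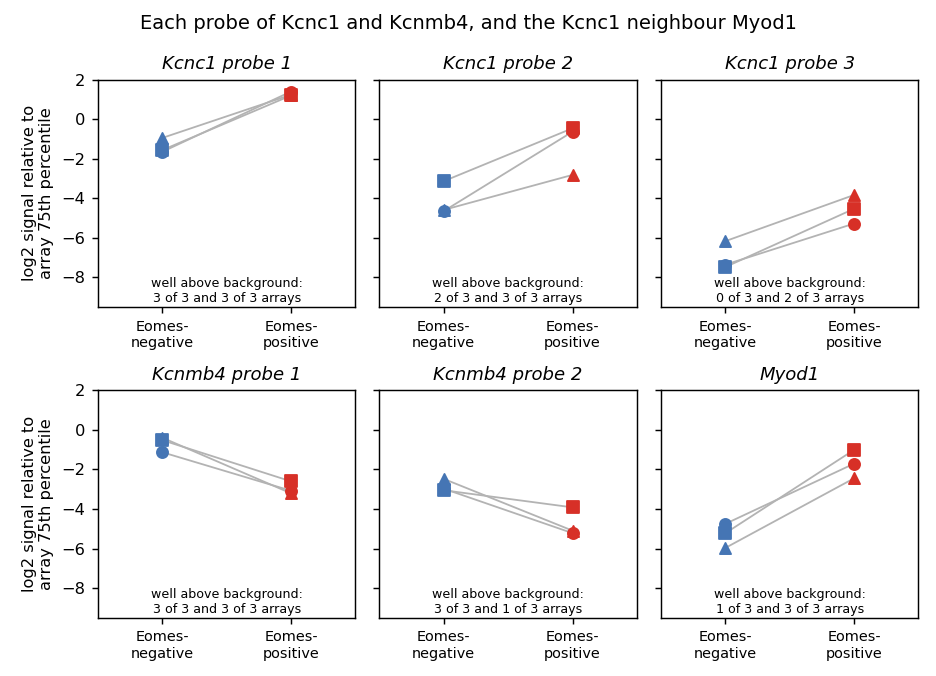
Level by array (log2 signal against the array's 75th percentile) for the 3 probes of Kcnc1, the 2 probes of Kcnmb4 and the Kcnc1 neighbour Myod1, with circles, squares and triangles for sorts 1, 2 and 3. Each panel gives how many arrays of each group measured the probe. Kcnc1 probe 3 was measured on 0 Eomes-negative arrays and Kcnmb4 probe 2 on 1 Eomes-positive array, so the other arrays of those groups show values not well above background.

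The genes on either side of the 7 members that passed with or without the block were also read, a choice made after the values of the members were seen. Of the 14 protein-coding neighbours in RefSeq order, 8 were tested and 1 passed, where 2.77% of all genes tested passed. That 1 was Myod1, which adjoins Kcnc1 and encodes a master regulator of skeletal muscle. Myod1 lay at -4.75, -5.23 and -5.97 in Eomes-negative sorts 1 to 3, well above background in 1 of them, and at -1.71, -1.01 and -2.45 in Eomes-positive sorts 1 to 3, well above background in all. Its Eomes-negative level is thus largely a bound. The groups did not overlap, and Myod1 rose with a difference of 3.60 (SE 0.47, limma adjusted p = 0.0207, or 0.0093 blocked by sort). It was 1.92 with the normexp correction, and the call was lost without Eomes-negative array 1 (0.0549), 2 (0.0818) or 3 (0.0683), without Eomes-positive array 1 (0.099) or 2 (0.0533), and without sort 1 (0.249), 2 (0.187) or 3 (0.0648). Sergef, the gene on the other side of Kcnc1, differed by -0.13 (SE 0.14, limma adjusted p = 0.915). The remaining 6 tested neighbours, Mcrs1, Ldhb, Yif1b, Map3k11, Ehbp1l1 and Cnot2, differed by 0.01 to 0.23.

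Genes that work with potassium channels in calcium signalling and ion balance mostly did not pass the test. Of 52 tested on a list of 58, 1 rose and 2 fell (5.77%, beside 2.77% of all genes), with a median difference of -0.16. P2rx7, an ATP-gated cation channel through which potassium leaves the cell, lay at 2.98, 2.64 and 2.78 in Eomes-negative and 0.42, 0.51 and 0.12 in Eomes-positive sorts 1 to 3. The groups did not overlap, and P2rx7 was 5.46-fold lower (difference -2.45, SE 0.17, limma adjusted p = 0.0032). Slc12a2, a cotransporter that brings sodium, potassium and chloride into the cell, lay at -0.20, 0.37 and -0.95 in Eomes-negative and 2.24, 2.22 and 2.15 in Eomes-positive sorts 1 to 3. It was 5.51-fold higher without overlap (difference 2.46, SE 0.34, adjusted p = 0.0247). Trpm4, a calcium-activated channel for monovalent cations that depolarizes the membrane, fell by 1.24 on the log2 scale (SE 0.20, limma adjusted p = 0.0369), or by 0.58 with the normexp correction (adjusted p = 0.761). It was well above background on 3 Eomes-negative and 2 Eomes-positive arrays.

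Over the same 9 fits the differences were -2.61 to -2.33 for P2rx7, 2.12 to 2.78 for Slc12a2 and -1.38 to -1.07 for Trpm4. Without sort 1, 2 or 3 (the first 2 of which left no gene on the array past the test) the limma adjusted p was 0.119, 0.0774 or 0.0528 for P2rx7, 0.348, 0.119 or 0.0907 for Slc12a2 and 0.301, 0.346 or 0.11 for Trpm4. P2rx7 passed without any 1 array. Slc12a2 was lost without Eomes-negative array 1 (0.0988) and without Eomes-positive array 1 (0.112), 2 (0.0903) or 3 (0.0915), and Trpm4 without Eomes-negative array 1 (0.0831), 2 (0.115) or 3 (0.0771) and Eomes-positive array 1 (0.147), 2 (0.139) or 3 (0.109). With the sort as a block, Lrrc8a, a subunit of the volume-regulated anion channel (difference -0.89, adjusted p = 0.0399), Atp2a3, a calcium pump of internal stores (-0.92, 0.0228), and Atp1b1, a sodium pump subunit (-0.94, 0.038), also passed. The core of store-operated calcium entry did not pass the test: Orai1, its pore, differed by 0.26 (SE 0.13, limma adjusted p = 0.576) and Stim1, its sensor, by -0.33 (SE 0.26, adjusted p = 0.807). Of the 9 calcineurin and NFAT genes, 0 passed (1 at an unadjusted p under 0.05).

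**Figure D5:**
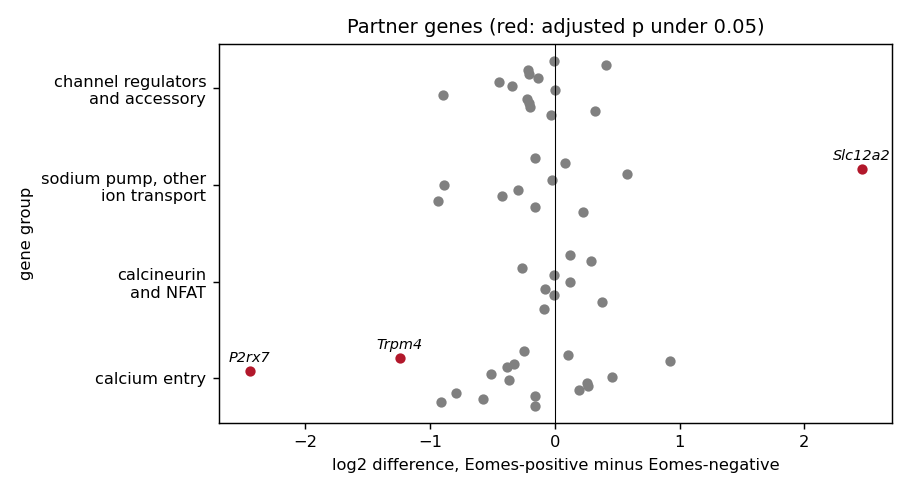
Log2 difference (horizontal axis) of the 52 tested partner genes, grouped by function, each point 1 gene. P2rx7 (-2.45), Trpm4 (-1.24) and Slc12a2 (2.46) passed the test and the other 49 did not.

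Marker genes for several kinds of cells were also compared between the groups. A summed signal adds probes of unlike brightness, so it mostly follows the brightest members of a list. Examples are Gzma for killer-cell and type 1 markers, Siglech for dendritic cells and Hba-a1 for red cells. Type 17 markers are those known from IL-17-producing γδ cells. Whether any marker varied together with the Kcn genes was not tested. The summed signal of 4 type 17 markers (Ccr6, Il23r, Il1r1 and Il17re) was 13.4 to 21.2 multiples of the 75th percentile in Eomes-negative arrays and 0.0842 to 0.489 in Eomes-positive arrays. All 4 fell, and Il23r and Il1r1 were not well above background on any Eomes-positive array. The αβ T cell markers (4 of 6, as Trac and Trbc1 were not matched by name) summed to 8.35 to 11.3 and 3.03 to 3.35 multiples. Of these, 1, Cd8b1, passed the test, and Foxp3 (difference -1.09) passed only in the fit blocked by sort (limma adjusted p = 0.0495, against 0.317). Killer-cell and type 1 markers, all 6 measured, summed to 37.9 to 117 and 55.1 to 102 multiples. Klrb1c and S1pr5 rose, as did Prf1 (0.65) only when blocked (limma adjusted p = 0.0319, against 0.0867). Ncr1 (difference 1.70), Klrk1 (-0.23) and Gzma (-0.14) did not pass with or without the block, and Klrk1 was lower in every sort. Sums for B cell markers were 15.7 to 23.8 and 9.48 to 18.8, with 0 past the test. Of these Cd79b, lower in every sort without overlap (difference -0.92), passed when blocked (limma adjusted p = 0.0217, against 0.0598). Dendritic cell markers summed to 44.1 to 72.7 and 45.1 to 73.9 multiples, and Itgax rose (difference 3.65, limma adjusted p = 0.0431). Siglech (difference 0.01), Flt3 (0.05) and Zbtb46 (0.41) did not pass. Clec9a and Xcr1 were measured on 2 arrays each and were not tested. The red cell sum ran from 17.7 to 163 in Eomes-negative and 18.2 to 208 in Eomes-positive arrays, lowest in sort 1 of both groups, with 0 past the test. The platelet sum was 0.0568 to 0.561 and 0.0263 to 0.653 multiples, also with 0 past the test. The 5 matched genes of the γδ T cell list, which are markers of T cells and not of γδ cells alone, summed to 341 to 493 and 292 to 398 multiples. Of these, Thy1 (difference -0.95) passed only when blocked (limma adjusted p = 0.0294, against 0.387). The part of cells of these kinds in the differences of Kcnk1, Kcnmb4, Kcnh3, Kcnc1 and Kcnj8 was not tested.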

How the data were processed

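Transcripts were measured on 6 one-colour Agilent arrays. Per the file headers, the signals are intensities from Agilent Feature Extraction 10.7.3.1 (version also given in the submitters' processing notes), subtracted for background and detrended within each array, and the flags for signal well above background (other columns of 0 or 1) come from the same software. The table of values the authors deposited holds intensity scaled between arrays. Its log2 offset from the scanner signal was constant within an array (interquartile range at most 0.0034 over probes well above background), and how it was scaled is not given in the sources used here.

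Log2 processed signals of the 4 spots of each of 39429 probes were averaged, leaving out outlier spots, and each array was centred on its 75th percentile. Measured means that 50% or more of a probe's spots on that array were well above background. Probe names were updated by RefSeq accession for 27508 probes (GRCm38.p6). The brightest probe stood for a gene, and the 16413 genes measured on 3 or more arrays were tested with limma 3.58.1 in R 4.3.3 (a model of group, Benjamini-Hochberg). Figures used Python 3.11.15 and matplotlib 3.10.9. The number of arrays limits the precision.

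Sort numbers paired the samples: deviations from the group means correlated at 0.81 to 0.82 for arrays of the same sort and at -0.57 to -0.26 otherwise. Deviations cancel within a group, so positive values for the same sort by themselves push the others below zero. Because of the pairing, values with the sort as a block are given where they change a call. Members and lists were chosen with earlier results of these data known. Values are given for members past the test with or without the block, Kcna3, Kcnn4, Kcnk5 and Kcnk18, the 3 largest differences and 3 brightest members, and for Orai1, Stim1, Trpm4 and partner genes past the test. A few genes are not reported here. Alternatives were another background correction (normexp with an offset of 50), scaling, filter, probe rule, block and prior, the deposited values, and leaving out arrays or sorts. The fit was tested on simulated data.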

Additional observations from a re-analysis of the deposited data

How the results depend on the processing

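The counts of Kcn genes kept within 1.5 times of 2 higher and 3 lower under alternatives that kept all 6 arrays, with these exceptions. With genes measured on all 6 arrays 1 was higher, because Kcnj8 and Kcnk1 then were not tested, and with the replicate block (sort) 5 were lower. Partner genes lower numbered 5 with the replicate block and 1 with the normexp correction, median scaling, quantile normalization, no filter, genes measured on all 6 arrays, slide as a block and an intensity trend, where Trpm4 was lost or not tested. The cause was not tested where an alternative kept the genes and arrays. Leaving out an array or a sort gave 0 to 2 Kcn genes higher, 0 to 2 lower, 0 to 1 partner genes higher and 0 to 1 lower. Kcna3 changed sign with slide as a block (0.031), and the other named genes kept their direction in all settings that tested them. The median difference of the members was -0.34 to -0.02 over the 19 alternatives. Over all genes, 600 were higher and 710 lower with the replicate block, against 197 and 257 without it, and 92 and 154 with no filter. Dim signals limit Kcnk1 and Kcnj8, whose lower group is at or near background.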

Other observations

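Some Kcn genes were measured on too few arrays for a comparison. Kcng3, a voltage-gated subunit that modifies the Kcnb channels, lay at -1.02 in Eomes-negative and -0.62 in Eomes-positive cells of sort 3, well above background in both, and at -7.38 to -6.84 on the other 4 arrays. Kcna2, a voltage-gated channel, Kcnab2, an auxiliary β subunit, and Kcnc4, of the same subfamily as Kcnc1, were each measured on 2 Eomes-negative and 0 Eomes-positive arrays. The remaining 12 of these 16 genes, Kcnab1, Kcnab3, Kcne1l, Kcne3, Kcnf1, Kcnj4, Kcnj11, Kcnk3, Kcnk9, Kcnk12, Kcnk15 and Kcnma1, were well above background on 1 array of a group at most.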
